A study of Rattus norvegicus with 6 samples.

Results

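The genes described here are those of transforming growth factor beta (TGF-beta) and bone morphogenetic protein (BMP) signalling. They were found by a rule on gene symbols: every row whose symbol begins with Bmp, Gdf, Smad, Acvr, Inhb or Tgfb, the genes Id1 to Id4, and Nog, Grem1, Chrd, Fst and Ltbp1. This gave 47 of the 14405 genes listed in each library. Of these, 41 had at least 1 FPKM in at least 3 libraries and were tested, and 6 (Gdf10, Bmp3, Bmpr1b, Acvr2b, Chrd and Nog) were below that level. FPKM is the number of mapped fragments scaled by transcript length and library size, so levels of different genes can be compared. The libraries came from rat tongue epithelium (labelled dorsal, and in the series' design as the circumvallate papilla, which carries taste buds at the back of the tongue). The control group was 3 libraries of rats without periodontitis, and the other was 3 libraries of rats with chronic periodontitis, an inflammatory disease that destroys the support of the teeth. Strain, age, sex and the way periodontitis was produced are not given in the labels, and the labels leave unsaid whether the libraries are from different animals. All p-values therefore rest on library-to-library spread alone, and that spread could be technical.

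TGF-beta, activin and BMP ligands are secreted dimers that bind pairs of type I and type II receptor kinases. The TGF-beta and activin branch phosphorylates Smad2 and Smad3, the BMP branch phosphorylates Smad1 and Smad5, and both act in the nucleus with Smad4. Secreted antagonists such as noggin, chordin, gremlin and follistatin trap ligands outside the cell. Smad6 and Smad7 are induced by the pathway as feedback inhibitors, and the Id genes are induced by the BMP branch in many cells. In the tongue, BMP signals and their antagonists are known for patterning taste papillae, and TGF-beta for restraining epithelial growth and for driving matrix production in the stroma. The choice by name also brought in 5 genes that are neither ligand, receptor nor Smad: Bmp1 (a procollagen protease), Bmp2k (a kinase), Tgfbi (a matrix protein induced by TGF-beta), Tgfb1i1 (a focal adhesion adaptor) and Tgfbrap1 (a receptor-associated adaptor).

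None of the 41 tested genes passed the test between periodontitis and control. limma gave 0 of 41 with a Benjamini-Hochberg adjusted p under 0.05, as for all 13154 tested genes (0 called, 0%), and the adjusted p of all 41 rounded to 1.0. At an unadjusted p under 0.05 the count was 0 of 41, against 2.11% of all tested genes. In 0 of 41 genes did all 3 periodontitis libraries lie on one side of all 3 controls, against 5.56% of all tested genes. The median log2 fold change (periodontitis less control, after log2(FPKM + 1)) was -0.12 over the 41 genes and -0.03 over all tested genes. The log2 fold change was below 0 in 30 of 41, where it was below 0 in 57.4% of all tested genes. After quantile normalization it was below 0 in 23 of 41, and the median over all tested genes was 0.02.

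The periodontitis libraries differed among themselves. Set against the control mean of each gene, the median log2 deviation of the 41 genes in periodontitis 1 to 3 was -0.22, 0.12 and -0.26, while controls 1 to 3 had 0.08, -0.07 and 0.01. Periodontitis 1 was below all controls in 23 of the 41 genes (40.6% of all tested genes), periodontitis 3 in 24 (49.6%) and periodontitis 2 in 2 (12.8%). Periodontitis 1 was above all controls in 5 of the 41 (34.4% of all tested genes), periodontitis 2 in 14 (38.9%) and periodontitis 3 in 7 (19.9%). Low values in periodontitis 1 and 3 were thus common over all tested genes as well as among the members. As a description over the 13154 tested genes, the Pearson r of log2 values was 0.966 to 0.980 between controls and 0.893 between periodontitis 1 and 3. Against the controls it was 0.924 to 0.951 for periodontitis 1, 0.968 to 0.978 for periodontitis 2 and 0.942 to 0.968 for periodontitis 3. Total FPKM ran from 611713 to 660619, and how many reads lie behind the values is unknown. The make-up of the totals differed. The 4 gland genes Lipf, Lcn1, Vegp2 and Bpifb1 held 24.48% to 29.45% in controls and 15.2%, 23.5% and 40.6% in periodontitis 1 to 3. Rescaled without them, the median log2 fold change was -0.10 over the 41 genes and -0.0003 over all tested genes. Markers of the labelled tissue were above the filter, with 10 of 10 taste cell, 7 of 8 von Ebner gland (the gland under the papilla) and 8 of 10 cornified epithelium markers, the others not being listed.

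**Figure D1:**
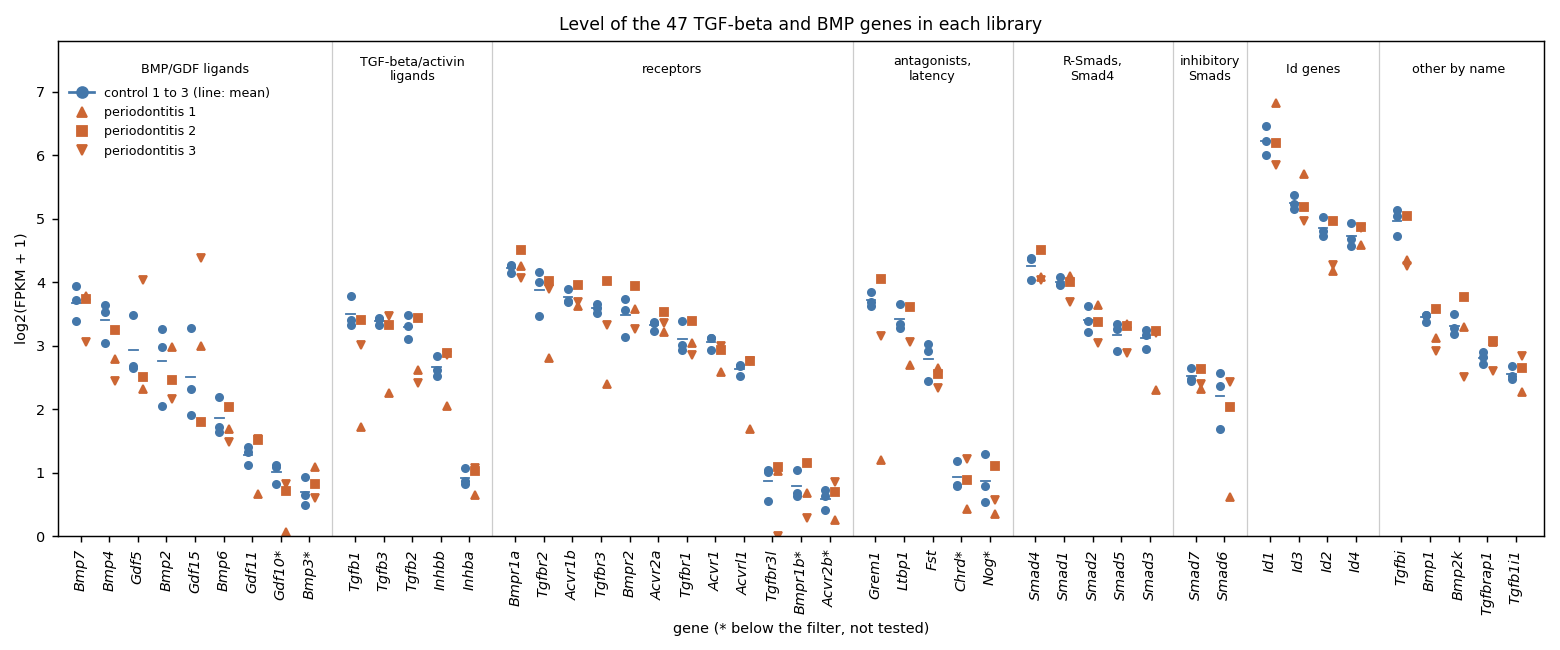
Level of each of the 47 genes in every library, as log2(FPKM + 1), grouped by role. Blue points are controls with a line at their mean, orange symbols are the periodontitis libraries, and Id1 and Id3 have the highest control means.

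Id1 and Id3 were the most abundant members in controls, and Id2 and Id4 followed after Tgfbi. Id genes encode helix-loop-helix proteins without a DNA-binding region, which hold basic helix-loop-helix factors inactive and are direct targets of BMP receptors in many cells. Id1 (chromosome 3, 148215540 to 148216718 as the deposited tables give it, build not given in the sources used here) had 74.0, 86.8 and 63.2 FPKM in controls 1 to 3. In periodontitis 1 to 3 it had 112, 72.1 and 56.7 FPKM. Periodontitis 1 was therefore the highest and periodontitis 3 the lowest of the 6 libraries, with the controls between them. Id3 (chromosome 5, 154489590 to 154491223) had 40.5, 36.4 and 34.5 FPKM in the controls, and 50.8, 35.3 and 30.1 FPKM in periodontitis 1 to 3. The same library was highest and the same library lowest as for Id1.

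Id2 did not follow them. It had 25.6, 31.7 and 26.9 FPKM in the controls, and 17.0, 30.4 and 18.4 FPKM in periodontitis 1 to 3, so that periodontitis 1 was the lowest library and periodontitis 2 lay among the controls. Id4 had 22.6, 24.7 and 29.7 FPKM in the controls, and 23.0, 28.2 and 28.0 FPKM in periodontitis 1 to 3, with periodontitis entirely inside the control range. The log2 fold changes were 0.06 ± 0.27 for Id1, 0.03 ± 0.22 for Id3, -0.38 ± 0.24 for Id2 and 0.04 ± 0.18 for Id4 (SE, n = 3 per group, limma adjusted p = 1.0 for each). Without periodontitis 1, the values of Id1 and Id3 were -0.21 and -0.18.

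Id1 and Id3, which had the same highest and lowest library, and Grem1, which had the largest difference among the members, are shown by the bases just before their annotated starts (RefSeq, build GRCr8). Capitals mark matches to GGCGCC (a GC-rich element bound by Smad1 and Smad5), GTCTAGAC (the palindromic Smad-binding element), CAGAC (a shorter Smad-binding element) or TATAAA (the TATA box), searched on both strands. No transcribed base is included. The windows are chr3:161671314-161671524 (plus strand) for Id1, chr5:153656041-153656252 (plus strand) for Id3 and chr3:120978320-120978569 (minus strand) for Grem1, each written 5′ to 3′. The RefSeq windows of Id1 and Id3 ran past the annotated start and are printed only up to it, as 211 and 212 bases, and that of Grem1 as 250 bases.
Id1: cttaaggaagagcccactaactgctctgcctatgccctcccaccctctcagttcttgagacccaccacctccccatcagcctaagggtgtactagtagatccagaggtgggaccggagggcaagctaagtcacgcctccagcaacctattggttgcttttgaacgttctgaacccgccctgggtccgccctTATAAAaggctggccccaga
Id3: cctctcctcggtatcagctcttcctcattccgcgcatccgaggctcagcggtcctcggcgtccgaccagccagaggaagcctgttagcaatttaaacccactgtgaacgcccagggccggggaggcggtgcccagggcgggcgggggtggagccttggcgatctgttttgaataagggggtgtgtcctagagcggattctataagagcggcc
Grem1: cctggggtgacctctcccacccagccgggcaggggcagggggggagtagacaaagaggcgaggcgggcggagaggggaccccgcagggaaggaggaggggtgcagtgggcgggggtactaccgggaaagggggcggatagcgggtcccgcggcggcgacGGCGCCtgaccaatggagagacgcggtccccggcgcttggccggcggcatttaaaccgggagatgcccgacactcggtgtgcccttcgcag
In the bases shown, Id1 held TATAAA, beginning 20 bases before its annotated start, and none of the other 3 motifs. Id3 held none of the 4, and Grem1 held 1 GGCGCC, beginning 91 bases before its start. Of the 47 genes, 38 had a promoter entry, and for the shares below the first 250 bases of every RefSeq window were searched in full. GGCGCC was found in 12 of these 38 (31.6%) and in 11.1% of 21842 protein-coding promoters of the same length. The member windows were also richer in G and C, with a median of 63.8% against 54.0%. CAGAC was found in 5 of 38 (13.2%) against 42.6%, TATAAA in 5 of 38 (13.2%) against 12.1%, and GTCTAGAC in 0 of 38 against 0.147%. None of the 4 motifs contains another, and the matches describe sequence only. Bases farther upstream were not searched, so a missing match does not mean that a gene lacks such sites.

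Among BMP and GDF ligands, Bmp7 and Bmp4 had the highest control means. Bmp7 had 14.3, 12.1 and 9.45 FPKM in the controls, and 12.7, 12.3 and 7.32 FPKM in periodontitis 1 to 3, with only periodontitis 3 outside the control range. The log2 fold change of Bmp7 was -0.16 ± 0.25 (SE, limma adjusted p = 1.0). Bmp4, a ligand of papilla epithelium and mesenchyme (chromosome 15, 20776054 to 20822740), had 10.6, 7.25 and 11.5 FPKM in the controls, and 5.89, 8.48 and 4.46 FPKM in periodontitis 1 to 3. Periodontitis 1 and 3 lay below all controls, and periodontitis 2 lay above control 2. Its log2 fold change of -0.58 ± 0.26 (SE, limma adjusted p = 1.0) came with the smallest unadjusted p of the 41 genes (limma, 0.0596).

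Bmp2 had 6.89, 8.65 and 3.14 FPKM in the controls, and 6.86, 4.52 and 3.49 FPKM in periodontitis 1 to 3, and the periodontitis values lay within the control range. Gdf15, a stress-induced distant member of the family, had 2.76, 3.97 and 8.71 FPKM in the controls, and 6.95, 2.48 and 19.9 FPKM in periodontitis 1 to 3. Gdf5, known from joint and tendon development, had 5.42, 5.27 and 10.2 FPKM in the controls, and 4.0, 4.67 and 15.5 FPKM. In both genes periodontitis 3 was the highest library and control 3 the next, so the groups overlapped. The log2 fold change was 0.56 ± 0.64 for Gdf15 and 0.02 ± 0.47 for Gdf5, and without periodontitis 3 they were -0.10 and -0.53.

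Lower ligands were Bmp6 (control mean 2.67 ± 0.788 FPKM, periodontitis mean 2.37 ± 0.667, SD, n = 3) and Gdf11 (1.45 ± 0.234 and 1.45 ± 0.750). Bmp3, below the filter, had 0.408 to 0.912 FPKM in the controls, and 0.513 to 1.13 in periodontitis. Gdf10, also below the filter, had 0.765, 1.19 and 1.13 FPKM in the controls, and 0.0505, 0.640 and 0.761 FPKM in periodontitis 1 to 3. It was the only one of the 47 genes whose groups did not overlap, by a margin between 0.765 and 0.761 FPKM.

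The 3 TGF-beta isoforms had similar control means. Tgfb1 (chromosome 1, 82480195 to 82497199) had 12.8, 9.54 and 9.07 FPKM in the controls, and 2.29, 9.55 and 7.09 FPKM in periodontitis 1 to 3. Periodontitis 1 had 21.9% of the control mean and periodontitis 3 also lay below all controls, whereas periodontitis 2 lay among them. Tgfb2 had 10.2, 8.93 and 7.65 FPKM in the controls, and 5.15, 9.84 and 4.32 FPKM in periodontitis 1 to 3, the same pair of libraries being low. Tgfb3 had 9.70, 8.99 and 9.89 FPKM in the controls, and 3.75, 9.06 and 10.02 FPKM in periodontitis 1 to 3, so that periodontitis 1 alone was low. The log2 fold changes were -0.80 ± 0.41 for Tgfb1, -0.48 ± 0.28 for Tgfb2 and -0.38 ± 0.32 for Tgfb3 (SE, limma adjusted p = 1.0 for each). Without periodontitis 1 they were -0.30, -0.38 and 0.001.

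The activin and inhibin subunits differed in level. Inhbb had 6.19, 5.12 and 4.75 FPKM in the controls, and 3.13, 6.37 and 6.26 FPKM in periodontitis 1 to 3. The library periodontitis 1 lay below the controls and the other two above them. Inhba means were 0.905 ± 0.179 FPKM for controls and 0.908 ± 0.291 for periodontitis (SD, n = 3). Their log2 fold changes were -0.07 and -0.01.

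**Figure D2:**
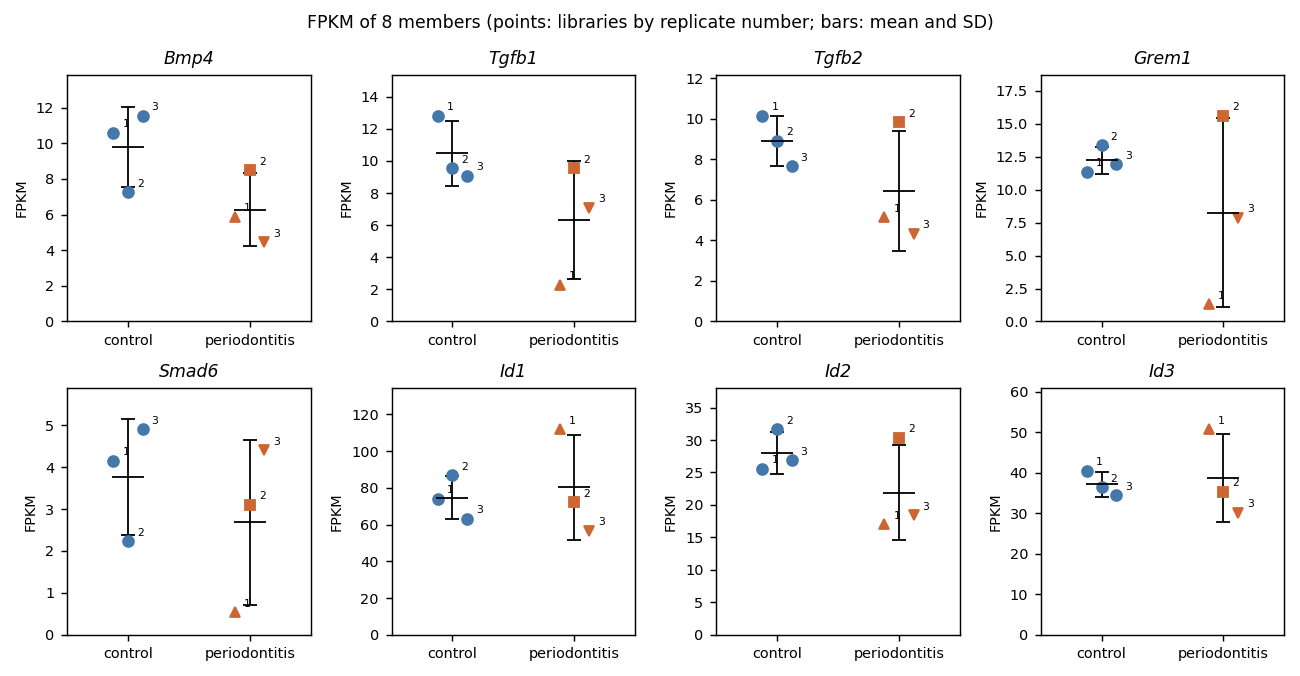
FPKM of 8 members, with each library as a point marked by its replicate number and bars for the mean and SD of the 3 libraries. Periodontitis 1 is lowest for Tgfb1 (2.29), Grem1 (1.31) and Smad6 (0.534) and highest for Id1 (112) and Id3 (50.8), and every pair of groups overlaps.

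Log2 fold changes of the 10 tested receptors ran from -0.34 to 0.11. Bmpr1a, a type I BMP receptor and the most abundant receptor, had 18.4, 16.6 and 18.1 FPKM in the controls, and 17.99, 21.7 and 15.7 FPKM in periodontitis 1 to 3, on both sides of the control range. Its log2 fold change was 0.05 ± 0.17 (SE, limma adjusted p = 1.0). Its relative Bmpr1b, below the filter, had 0.552 to 1.06 FPKM in the controls, and 0.227 to 1.23 in periodontitis. The type II receptors Bmpr2 and Acvr2a had control means of 10.3 ± 2.30 and 9.01 ± 0.560 FPKM, and periodontitis means of 11.3 ± 2.86 and 9.40 ± 1.17 (SD, n = 3). Acvr2b, below the filter, had 0.200 to 0.801 FPKM over the 6 libraries.

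Among type I receptors, Acvr1b (activin) and Tgfbr1 (TGF-beta) had log2 fold changes of -0.01 ± 0.17 and -0.01 ± 0.22, and Acvr1 (BMP and activin) had -0.22 ± 0.18 (SE). The TGF-beta type II receptor Tgfbr2 had 14.97, 10.1 and 16.8 FPKM in the controls, and 6.02, 15.2 and 13.9 FPKM in periodontitis 1 to 3. Tgfbr3, the co-receptor betaglycan, had 11.7, 10.4 and 11.1 FPKM in the controls, and 4.25, 15.2 and 9.07 FPKM. Acvrl1, the ALK1 receptor of endothelium, had 5.42, 4.77 and 5.51 FPKM in the controls, and 2.24, 5.78 and 5.76 FPKM. In these 3 receptors periodontitis 1 was the lowest library, and without it their log2 fold changes were 0.08, 0.09 and 0.12, against -0.30, -0.34 and -0.23 with all libraries. Tgfbr3l had 0.474 to 1.07 FPKM in the controls, and 1.03 and 1.14 in periodontitis 1 and 2, and was listed at 0 in periodontitis 3.

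Of the 4 extracellular antagonists, gremlin and follistatin passed the filter. Grem1 (chromosome 3, 105203309 to 105214989), which encodes gremlin, an antagonist of BMP2 and BMP4, had 11.4, 13.4 and 11.9 FPKM in controls. In periodontitis 1 to 3 it had 1.31, 15.6 and 7.86 FPKM. Periodontitis 1 had 10.7% of the control mean, periodontitis 3 was also below all controls, and periodontitis 2 was above them. The log2 fold change was -0.92 ± 0.63 (SE, limma adjusted p = 1.0), the largest in size of the 41 genes, and -0.12 without periodontitis 1.

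Fst, follistatin, which binds activins, had 6.53, 4.43 and 7.16 FPKM in the controls, and 5.29, 4.86 and 4.05 FPKM in periodontitis 1 to 3, with overlapping groups. Ltbp1, which holds latent TGF-beta in the matrix, had 11.6, 9.13 and 8.69 FPKM in the controls, and 5.45, 11.1 and 7.29 FPKM, with periodontitis 1 and 3 low as for Tgfb1. The log2 fold changes were -0.28 ± 0.21 for Fst and -0.31 ± 0.26 for Ltbp1 (SE). The BMP antagonists noggin and chordin were below the filter. Nog had 0.735, 1.45 and 0.456 FPKM in the controls, and 0.283, 1.15 and 0.483 FPKM in periodontitis 1 to 3. Chrd had 0.733 to 1.27 FPKM in the controls, and 0.353 to 1.33 in periodontitis.

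Signal-transducing Smads differed little in group mean. Smad4, the common partner, had 19.8, 15.3 and 19.5 FPKM in the controls, and 15.9, 21.7 and 15.3 FPKM in periodontitis 1 to 3, with a log2 fold change of -0.05 ± 0.20 (SE, limma adjusted p = 1.0). The BMP-branch genes Smad1 and Smad5 had control means of 15.02 ± 0.791 and 8.09 ± 1.38 FPKM, and periodontitis means of 14.4 ± 2.23 and 8.13 ± 1.52 (SD, n = 3). In the TGF-beta branch, Smad2 had 9.70 ± 1.51 and 9.33 ± 2.10 FPKM. Smad3 had 8.49, 6.73 and 7.96 FPKM in the controls, and 3.92, 8.35 and 8.16 FPKM in periodontitis 1 to 3, so that it alone of the 5 was below all controls in periodontitis 1. The log2 fold changes of the 5 ran from -0.21 (Smad3) to 0.003 (Smad5).

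The inhibitory Smads differed from each other in spread. Smad6 (chromosome 8, 68898296 to 68966108), the inhibitor most tied to the BMP branch, had 4.15, 2.24 and 4.91 FPKM in the controls, and 0.534, 3.10 and 4.40 FPKM in periodontitis 1 to 3. Periodontitis 1 was far below the other 5 libraries, which overlapped. Smad7, an inhibitor of both branches, had 5.29, 4.47 and 4.59 FPKM in the controls, and 3.97, 5.21 and 4.25 FPKM. The log2 fold changes were -0.51 ± 0.48 for Smad6 and -0.08 ± 0.18 for Smad7 (SE, limma adjusted p = 1.0 for both). Without periodontitis 1 that of Smad6 was 0.03.

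**Figure D3:**
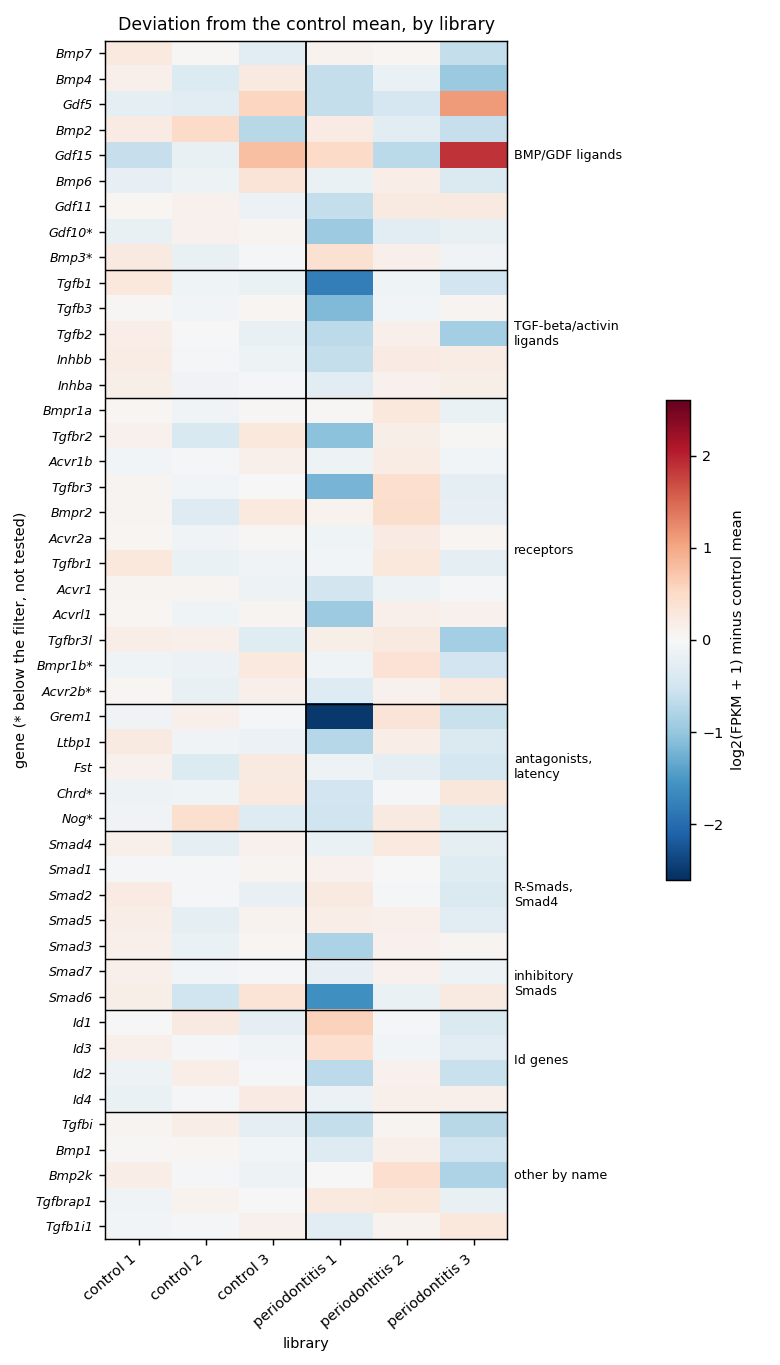
Heat map of log2(FPKM + 1) minus the control mean for the 47 genes (rows, by role) in the 6 libraries (columns), blue for lower and red for higher. Periodontitis 1 has the darkest blue cells (Grem1, Tgfb1, Smad6), periodontitis 3 is reddest for Gdf15, and periodontitis 2 deviates most for Gdf15 (-0.70).

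Of the 5 genes that are neither ligand, receptor nor Smad, Tgfbi was the most abundant. It had 32.0, 34.1 and 25.5 FPKM in the controls, and 19.3, 31.8 and 18 FPKM in periodontitis 1 to 3, and periodontitis 1 and 3 were below all controls. Its log2 fold change was -0.42 ± 0.25 (SE, limma adjusted p = 1.0). In Bmp1, too, periodontitis 1 and 3 were below all controls, with 9.32 to 10.2 FPKM in the controls, and 7.67, 11.0 and 6.58 FPKM. Bmp2k had 4.69 FPKM in periodontitis 3 and 8.05 to 12.6 FPKM in the other libraries. Tgfbrap1 and Tgfb1i1 had log2 fold changes of 0.11 and 0.03.

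Without periodontitis 2, the library nearest the controls, 7 of the 41 genes had an unadjusted p under 0.05, all lower (4.92% of all tested genes in either direction, 4.43% lower): Bmp4, Grem1, Id2, Ltbp1, Tgfb1, Tgfb2 and Tgfbi. Groups did not overlap in 11 of 41, against 17.9% of all tested genes in that comparison. None passed the adjusted threshold, the smallest adjusted p being 0.967 (limma), shared by Tgfb2, Id2, Tgfbi and Bmp4. The log2 fold changes of the 7 ran from -1.54 (Grem1) to -0.55 (Ltbp1). Both remaining periodontitis libraries lay below the controls in these genes, and with periodontitis 2 included the 7 had overlapping groups. Leaving out the library nearest the controls favours a difference in advance, so these counts are not support for one. Over all tested genes, too, the share without overlap was 5.56% with all libraries and 17.9% without periodontitis 2. With another library left out, few or no members reached an unadjusted p under 0.05 (limma). The count was 1 of 41 without control 2 (Bmp4, 0.935% of all tested genes). It was 0 of 41 without control 1 (1.13%), control 3 (1.56%), periodontitis 1 (1.84%) or periodontitis 3 (7.7%). Groups did not overlap in 0 of 41 genes without control 1 (9.53% of all tested genes), 2 without control 2 (9.71%) and 3 without control 3 (12.3%). They did not overlap in 3 without periodontitis 1 (12.1%) and 2 without periodontitis 3 (28.3%). With all libraries but other processing, groups did not overlap in 1 of 47 with no filter (Gdf10, 5.86% of all genes) and 1 of 41 after quantile normalization (Tgfb1, 6.84%). An unadjusted p under 0.05 (limma) was reached by 1 of 41 after quantile normalization (Bmp4, 2.3% of all tested genes). The count was 0 under the other processing settings (1.38% to 3.56%).

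Ratios between members do not depend on the scaling of a library. In all, 13 ratios were computed, chosen after the values of the members were known. The share of Tgfb1 in the summed FPKM of the 3 TGF-beta genes was 39.2%, 34.7% and 34.1% in controls and 20.5%, 33.6% and 33.1% in periodontitis 1 to 3. The share of Bmp7 in the sum of Bmp2, Bmp4 and Bmp7 was 45.0%, 43.2% and 39.2% in controls and 49.9%, 48.6% and 48.0% in periodontitis. Groups did not overlap in these 2 of the 13 ratios. For both, the two-sided exact permutation p was 0.1, the smallest that 3 against 3 libraries allow, and the adjusted p over the 13 was 0.65, so neither passed. The Tgfb1 share differed by -6.99 percentage points with all libraries and by -2.70 without periodontitis 1, while the Bmp7 share differed by 6.35, and by 4.70 to 7.62 with any 1 library left out.

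In several other ratios periodontitis 1 was the farthest from the controls. Grem1 relative to the sum of Bmp2, Bmp4 and Bmp7 was 0.358, 0.477 and 0.494 in controls and 0.0514, 0.617 and 0.515 in periodontitis 1 to 3. Id1 relative to Id2 was 2.35 to 2.89 in controls and 6.60, 2.38 and 3.08 in periodontitis, while Id1 relative to Id3 was 1.83 to 2.38 in controls and 1.88 to 2.20 in periodontitis. Smad6 relative to Smad7 was 0.501 to 1.07 in controls and 0.135, 0.595 and 1.04. BMP-branch relative to TGF-beta-branch Smads (Smad1 and Smad5 over Smad2 and Smad3) was 1.19 to 1.502 in controls and 1.65, 1.36 and 1.19 in periodontitis 1 to 3. The exact permutation p of these 5 ratios was 0.4 to 1.0.

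**Figure D4:**
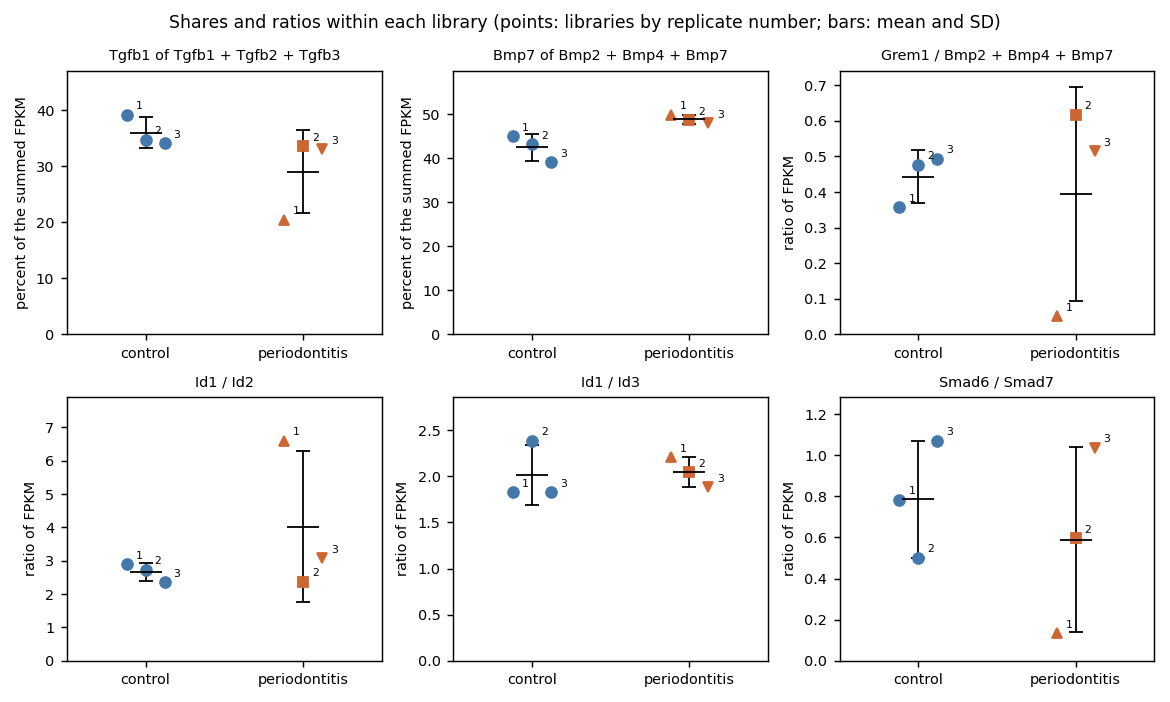
Within-library shares (percent of summed FPKM) and ratios of FPKM for 6 combinations, with libraries as numbered points and bars for the mean and SD. The Bmp7 share is 48.0% to 49.9% in periodontitis and 39.2% to 45.0% in controls, and periodontitis 1 stands alone for Grem1, Id1 over Id2 and Smad6 over Smad7.

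The rest of the pathway was read from lists of regulators and target genes. Of other ligands, antagonists, co-receptors and intracellular regulators, 58 were listed and 56 tested, with 0 past the threshold and a median log2 fold change of -0.07. The log2 fold change was below 0 in 40 of the 56 (57.4% of all tested genes). At an unadjusted p under 0.05 the count was 1 of 56, against 2.11% of all tested genes: Ltbp2, a matrix protein related to Ltbp1, with 4.15 ± 0.577 FPKM in controls (SD, n = 3) and 0.335, 3.38 and 1.94 FPKM in periodontitis 1 to 3 (log2 fold change -0.99). Of the extracellular genes, the log2 fold change was also -0.76 for Bgn, a proteoglycan that binds TGF-beta, and -0.34 for Nbl1, a BMP antagonist. Of the co-receptors it was -0.70 for Hfe2 and -0.32 for Rgma, both of the BMP branch, and -0.22 for Eng, the endothelial endoglin. Of the intracellular regulators it was 0.24 for Trim33, a ubiquitin ligase that acts on Smad4, -0.32 for the repressor Zeb1 and -0.22 for the SUMO ligase Pias4. The genes named had the smallest p of their lists, and groups overlapped in all of them but Ltbp2. Median log2 fold changes were -0.18 for the extracellular genes, -0.06 for the co-receptors and -0.04 for the intracellular regulators.

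Of 21 tested TGF-beta target genes, 0 passed and 2 had an unadjusted p under 0.05 (2.11% of all tested genes), in opposite directions. Cyr61 had 16.7 ± 5.04 FPKM in the controls, and 44.1, 23.6 and 39.7 FPKM in periodontitis 1 to 3 (log2 fold change 1.05), and Ctgf had 11.4 ± 1.21 FPKM in the controls, and 7.83, 8.84 and 8.46 FPKM (-0.40). These were also the 2 whose groups did not overlap (5.56% of all tested genes). Cyr61 is also an immediate early gene, and the summed FPKM of 13 of 14 immediate early markers listed was 477 to 604 in controls and 1708, 633 and 1068 in periodontitis 1 to 3, none being at 0 in any library. Its part in the value of Cyr61 was not tested. Of 16 tested BMP target genes, 0 passed, 0 had an unadjusted p under 0.05, and the median log2 fold change was -0.06. Groups did not overlap in 1 (5.56% of all tested genes). This was Tbx3, a transcription factor named after its values were seen (log2 fold change -0.19). Its groups were separated only by a margin between 13.400 FPKM (control 2) and 13.395 FPKM (periodontitis 3).

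Markers of cell types also differed between the libraries. Lower FPKM in a bulk sample cannot tell fewer cells of a type from less RNA per cell. The summed FPKM of 9 of 10 fibroblast markers listed was 1542 to 1701 in controls and 690, 1427 and 1114 in periodontitis 1 to 3, and that of 8 of 9 endothelial markers was 66.2 to 74.5 in controls and 43.6, 65.4 and 72.6. For smooth muscle and pericytes (8 of 8) it was 474 to 624 in controls and 354, 469 and 757. For macrophages (10 of 10) it was 185 to 280 in controls and 122, 212 and 148. For skeletal muscle (10 of 12) it was 3728 to 5257 in controls and 1139, 2574 and 3278. None of these markers was at 0 in any library.

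As percent of the control mean, fibroblast markers were at 42.9%, 88.7% and 69.3% in periodontitis 1 to 3. Macrophage markers were at 55.3%, 96.4% and 67.1%, and endothelial markers at 62.5%, 93.7% and 104%. Summed TGF-beta and activin ligands were at 42.4%, 102% and 81.9%, and summed antagonists and latency proteins at 42.5%, 113% and 70.4%. The antagonists and latency proteins were not equally low in periodontitis 1, with Grem1 at 10.7%, Ltbp1 at 55.7% and Fst at 87.6%. Summed basal epithelium markers (6 of 7 listed) were at 166%, 99.9% and 68.9% and cornified epithelium markers (8 of 10) at 169%, 111% and 58.5%, with no marker at 0. The basal markers did not move together. In periodontitis 1, 3 of 6 lay above all controls (34.4% of all tested genes), Krt14 among them. Another 2 of 6, Itgb4 and Col17a1, lay below all controls (40.6%). Beside the epithelial sums, Id1 was at 150%, 96.6% and 75.9% and Id3 at 137%, 95.1% and 81.0%. Id2 was at 60.5%, 108% and 65.5% and Id4 at 89.6%, 110% and 109%. Gland markers (7 of 8) were at 56.5%, 85.0% and 159%, and Gdf15 was at 135%, 48.3% and 386%. The part of cell composition in these values was not tested.

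**Figure D5:**
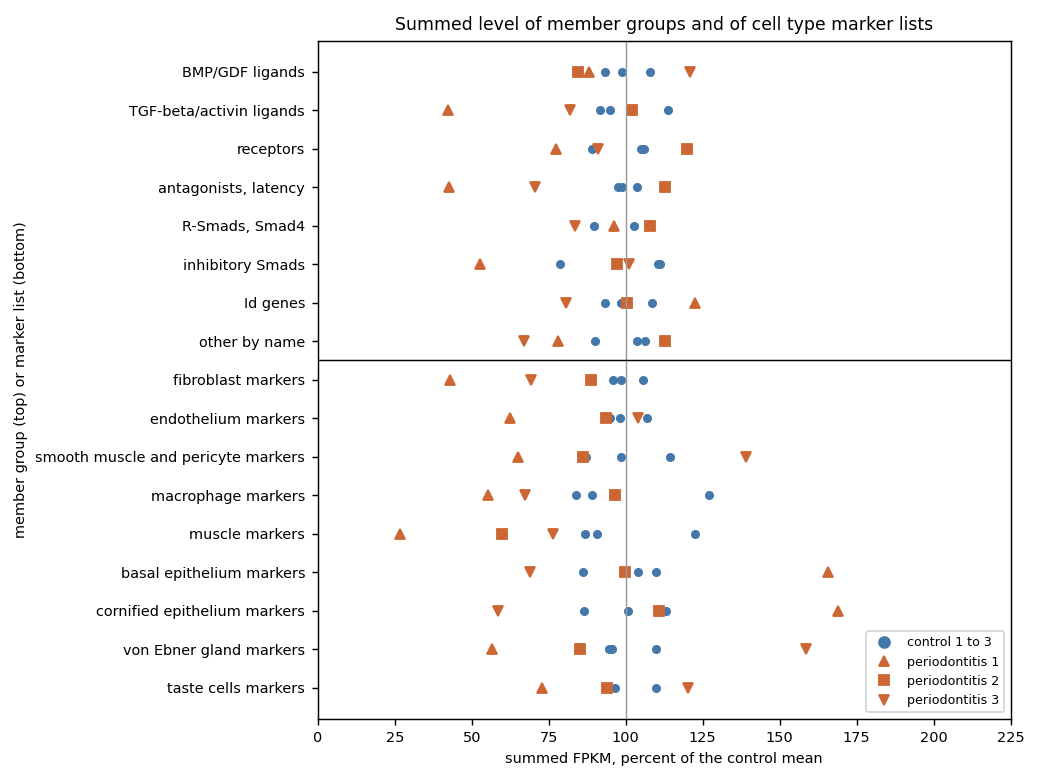
Summed FPKM of each member group (top) and cell type marker list (bottom) in every library, as percent of the control mean. TGF-beta and activin ligands, antagonists and fibroblast markers lie near 43% in periodontitis 1, while the sums of Id genes and of epithelial markers are above 100% there. Singly, Id2 (60.5%) and Id4 (89.6%) were below 100% in that library. Of the tested antagonists and latency proteins, Grem1 was at 10.7%, Ltbp1 at 55.7% and Fst at 87.6% there.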

How the data were processed

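The deposited files give 1 FPKM value per gene and library, per the file headers, for 14405 genes in 3 control and 3 periodontitis libraries. The submitters' processing notes name FastQC, cutadapt, HISAT2 and StringTie without versions, and the mouse build mm10, although the deposited identifiers are from rat. The rat build is therefore not given in the sources used here, and neither are read counts, depth or strand. Positions of genes are as deposited, and promoter sequences are RefSeq's (GRCr8), matched by symbol.

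log2(FPKM + 1) was tested over the 13154 genes that reached 1 FPKM in 3 or more libraries, using limma 3.58.1 (R 4.3.3) with a mean-variance trend and group as the only term, two-sided, Benjamini-Hochberg over all tested genes, threshold 0.05. Fold changes on this scale understate changes of low genes, and FPKM is a share of a library's total. Ratios used exact permutation tests (scipy 1.17.1). All members were described, and of each other list the up to 3 genes with the smallest p were eligible for naming. One further gene that the rule named is not reported here. Members and lists were chosen with earlier results of these data known. Alternatives tried were a block for the replicate number, other filters, scalings and pseudocount, limma without the trend, a threshold of 0.1, and each library left out. Leaving libraries out of the ratios was chosen after seeing the data.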

Additional observations from a re-analysis of the deposited data

How the results depend on the processing

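No member passed the threshold under any of the alternatives run, and 0 of the other pathway and target genes did. Over all tested genes the count of 0 became 3 with the replicate number as a block, 1 at an adjusted p under 0.1, and 0 to 1 with a library left out (1 without control 1). Members with groups without overlap numbered 0 with all libraries (5.56% of all tested genes), 1 without a filter (Gdf10, 5.86%), 1 after quantile normalization (Tgfb1, 6.84%) and 0 to 11 with a library left out (9.53% to 28.3%), the 11 being without periodontitis 2 (17.9%). The median log2 fold change of the members ranged from -0.21 without periodontitis 2 to -0.02 without periodontitis 1, was -0.04 after quantile normalization (0.02 over all genes) and -0.10 after rescaling without 4 gland genes. Of the 41 tested members, 11 kept the sign of their fold change in every alternative that tested them: Acvr1, Bmp1, Bmp4, Fst, Grem1, Id2, Ltbp1, Tgfb1, Tgfb2 and Tgfbi were lower and Tgfbrap1 higher, none past the threshold. In all, 63 of 525 member values changed sign, all of them in genes that did not pass. Of the 13 ratios, 8 changed the sign of their difference with a library left out. The labels leave unsaid whether the replicate numbers pair the libraries. Deviations of same-numbered libraries correlated at 0.09, 0.03 and 0.46, and only number 3 correlated best with its own number. With 3 libraries per group, these correlations cannot settle whether the libraries were paired. No limit from depth could be given for low genes such as Nog, Chrd and Bmpr1b, because the files hold no read counts.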
